A study of Mus musculus with 4 samples.

Results

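The 5 genes described here are the fatty acid uptake genes Cd36, Fabp4, Gpihbp1, Lpl and Pparg, found by their symbols among the 30905 genes of a mouse prostate single-cell RNA matrix. They were followed in endothelial cells, the cells that line vessels, and in all other cells. A cell counted as endothelial when it held at least 2 UMIs (unique molecular identifiers, each 1 captured transcript) of Cdh5 and Flt1 together and none of Ptprc, the pan-leukocyte gene. This took 845 of the 28983 cells kept from 36326 barcodes. The genes were proposed with their levels in these cells already known, so a higher level in endothelial cells than in other cells is a description and not a finding.

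Prostates of mice from 4 groups were dissociated and sequenced with droplet 3′ chemistry, with 1 library per group. In the Trp53-deleted ADT and Trp53-deleted groups the tumour suppressor gene Trp53 was deleted, while the Trp53-intact ADT and Trp53-intact groups kept it. The genotype marks the deletion with PC, which is not spelled out and is read here as prostate-restricted. The mice were 5.5 months old in the Trp53-deleted ADT group, 3.5 months in the Trp53-deleted group, 5.5 months in the Trp53-intact ADT group and 4 months in the Trp53-intact group. ADT is not spelled out in the labels and is read here as androgen deprivation therapy. With 1 library per group there is no replicate check, so no test was made. An effect of ADT, and one of genotype without ADT, cannot be told apart from those of age and of the library itself. With ADT both genotypes were of 1 age, but genotype cannot be told apart from the library there either. Intervals below are exact 95% intervals that cover counting error only.

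Capillary endothelium takes up fatty acids from triglyceride-rich lipoproteins. LPL, the lipoprotein lipase, is made mainly by parenchymal cells such as adipocytes and muscle, and GPIHBP1, a protein of the capillary endothelial surface, binds it and carries it across to the vessel lumen. CD36 is a fatty acid receptor of endothelial cells and macrophages, FABP4 is a cytosolic fatty acid carrier of adipocytes, macrophages and capillary endothelium, and PPARG is a lipid-sensing nuclear receptor. In mouse adipocytes and macrophages, Cd36 and Fabp4 are among its known targets.

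On GRCm38 the genes lie apart, with Cd36 at chr5:17781690-17888801 on the minus strand, Fabp4 at chr3:10204088-10208576 on the minus strand, Gpihbp1 at chr15:75596628-75599481 on the plus strand, Lpl at chr8:68880491-68907448 on the plus strand and Pparg at chr6:115360951-115490399 on the plus strand. Because PPARG binds DNA at repeats of the hexamer AGGTCA with its partner RXR, the RefSeq promoters (GRCm38.p6, 250 bases before to 50 after a start) were searched for that hexamer on both strands. Cd36 matched with 1 start and Pparg with 3 starts, and Fabp4, Gpihbp1 and Lpl were not matched. The windows with a match are printed 5′ to 3′ along the gene, with the hexamer or its reverse complement in capitals, to show the sequence next to the starts.
Cd36, chr5:17835847-17836146, minus strand: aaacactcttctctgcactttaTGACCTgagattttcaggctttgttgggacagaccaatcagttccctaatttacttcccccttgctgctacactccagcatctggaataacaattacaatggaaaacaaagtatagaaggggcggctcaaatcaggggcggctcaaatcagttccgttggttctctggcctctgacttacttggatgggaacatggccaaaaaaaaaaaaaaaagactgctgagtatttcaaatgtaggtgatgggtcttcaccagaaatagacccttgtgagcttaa
Pparg start 1, chr6:115360894-115361193, plus strand: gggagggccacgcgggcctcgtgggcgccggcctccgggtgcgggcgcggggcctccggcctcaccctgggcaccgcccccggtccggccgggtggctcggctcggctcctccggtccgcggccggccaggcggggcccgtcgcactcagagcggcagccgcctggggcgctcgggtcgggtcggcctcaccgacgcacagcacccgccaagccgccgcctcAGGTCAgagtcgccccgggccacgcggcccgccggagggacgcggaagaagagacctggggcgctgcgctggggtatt
Pparg start 2, chr6:115362099-115362398, plus strand: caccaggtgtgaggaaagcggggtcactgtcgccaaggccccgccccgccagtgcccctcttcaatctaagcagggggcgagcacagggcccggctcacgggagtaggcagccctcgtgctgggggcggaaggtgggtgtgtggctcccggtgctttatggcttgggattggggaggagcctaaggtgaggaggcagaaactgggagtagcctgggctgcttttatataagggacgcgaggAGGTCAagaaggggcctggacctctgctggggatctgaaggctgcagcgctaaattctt
Each of these windows held the hexamer 1 time, and the third Pparg window held none. Of 32851 promoters of 300 bases, 5340 (16.3%) held it. A direct repeat of AGGTCA, with any 1 base (N) between the copies, occurred in 13 promoters (0.0396%), none of them a window of Cd36 or Pparg. The Pparg window of start 2 also held TATAAA on the other strand, where it reads tttata in the printed letters, and 4473 promoters (13.6%) held it on either strand. These matches are descriptions of letters and not of bound sites.

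The endothelial gate held 349, 127, 150 and 219 cells in the Trp53-deleted ADT, Trp53-deleted, Trp53-intact ADT and Trp53-intact libraries, and their median depth was 9974, 4841, 6867 and 9826 UMIs. All 12 endothelial markers were detected in it, and their summed level was 3441 to 8498 CPM (the UMIs of a gene scaled to a common total of all UMIs) in gated cells and 46.3 to 78.0 CPM in other cells. Some gated cells also carried genes of other cells. Sub-clusters led by fibroblast, pericyte, epithelial or Sfrp5 genes, or by Igfbp2 and Cdkn2a, held 77, 22, 33 and 67 of the gated cells and 59.9%, 30.8%, 37.1% and 42.4% of their UMIs. Gated cells of over 50000 UMIs, which were 50 cells in the Trp53-deleted ADT library and at most 4 in each of the others, held 62.8% of the gated UMIs of the first library. Levels are therefore also given over the endothelial sub-clusters alone, with 272, 105, 117 and 152 cells, where the summed fibroblast markers were 200.4 to 399.4 CPM. Genes of some other cells stayed in. The neutrophil gene S100a8 of the Trp53-intact ADT library was 851 CPM over these sub-clusters, against 543 CPM in the gate. In the Trp53-deleted library the haemoglobin gene Hbb-bs was 2443 against 1691 CPM and the seminal vesicle gene Svs5 391 against 312 CPM. The rule for these sub-clusters was set after the data were seen. Trp53 itself was 70.5, 74.5, 82.8 and 64.2 CPM in gated and 35.7, 42.4, 64.7 and 45.5 CPM in other cells, but 3′ tags outside a deleted part do not check the deletion. Pairs of libraries shared 12 to 31 cell barcodes (0.141% to 0.330%).

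Not all 5 genes had most of their UMIs in gated endothelial cells. Gated endothelial cells held 80.5% to 90.1% of the Gpihbp1 UMIs of a library and 60.8% to 74.1% of the Fabp4 UMIs, but 15.7% to 32.0% of Cd36 UMIs. They held only 0.852% to 4.78% of Lpl UMIs and 3.95% to 7.74% of Pparg UMIs. Gated cells were few, so such shares do not give levels. The Pparg level of gated cells was 0.981, 4.03, 1.49 and 1.20 times that of other cells. These are the Trp53-deleted ADT, Trp53-deleted, Trp53-intact ADT and Trp53-intact libraries. For Lpl it was 0.676, 1.20, 0.312 and 0.448 times in the same order. Cd36, Fabp4 and Gpihbp1 were at least 1.5-fold higher in endothelial than in other cells of all 4 libraries, as were 838 of 14957 genes (5.60%). The values were part of the choice of these genes, and nothing is read from that share.

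Gpihbp1, whose product carries the lipase across the endothelium, was nearly restricted to endothelial cells. Its level was 185 [176, 194] CPM in endothelial cells of the Trp53-deleted ADT library, 540 [495, 588] in the Trp53-deleted, 208 [186, 233] in the Trp53-intact ADT and 293 [273, 314] in the Trp53-intact library. In other cells it was 3.33, 1.23, 0.975 and 1.27 CPM in the same order. A UMI of Gpihbp1 was found in 42.7%, 42.5%, 37.3% and 41.6% of endothelial cells, against 0.687%, 1.03%, 0.196% and 0.263% of lymphoid cells, which should lack it. The lymphoid cells had median depths of 4376 to 5924 UMIs. When each cell was thinned to 1000 UMIs, 18.2%, 23.9%, 12.9% and 17.0% of endothelial cells kept a UMI of Gpihbp1.

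Fabp4, the fatty acid carrier, was the member whose endothelial levels stood farthest from its levels elsewhere after Gpihbp1. It measured 278 [267, 290] CPM in endothelial cells of the Trp53-deleted ADT library, 5247 [5104, 5392] in the Trp53-deleted, 2025 [1954, 2098] in the Trp53-intact ADT and 2645 [2584, 2706] in the Trp53-intact library. Other cells held 13.2, 70.3, 22.4 and 33.8 CPM. The Trp53-deleted ADT library was the low one and the Trp53-deleted library the high one, and no intervals of these 4 endothelial levels overlapped. Thinned to 1000 UMIs, 9.38%, 45.3%, 27.1% and 34.4% of endothelial cells held a Fabp4 UMI, against 0.393%, 2.31%, 0.655% and 1.45% of lymphoid cells. A single cell gave 583 of the 2424 Fabp4 UMIs (24.1%) of the Trp53-deleted ADT gate.

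Cd36, the fatty acid receptor, measured 28.0 [24.6, 31.8] CPM in endothelial cells of the Trp53-deleted ADT library, 713 [661, 768] in the Trp53-deleted, 264 [239, 291] in the Trp53-intact ADT and 245 [226, 264] in the Trp53-intact library. Only the 2 Trp53-intact libraries overlapped in their intervals. Other cells held 11.2, 31.5, 18.3 and 33.0 CPM. In the Trp53-deleted ADT gate 1 cell gave 106 of the 244 Cd36 UMIs (43.4%). A UMI of Cd36 was found in 7.45% of endothelial cells there, 46.5% in the Trp53-deleted, 20.7% in the Trp53-intact ADT and 32.0% in the Trp53-intact library, against 2.26%, 5.02%, 2.03% and 5.66% of lymphoid cells.

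Lpl, the lipase itself, was no higher in endothelial than in other cells except in the Trp53-deleted library. It measured 20.8 [17.9, 24] CPM in endothelial cells of the Trp53-deleted ADT library, 208 [181, 239] in the Trp53-deleted, 21.7 [14.9, 30.5] in the Trp53-intact ADT and 31.9 [25.6, 39.3] in the Trp53-intact library, and 30.8, 174, 69.4 and 71.3 CPM in other cells. Over the endothelial sub-clusters alone the levels were 11.7, 238, 23.0 and 8.82 CPM, against 9.81, 22.9, 9.18 and 3.43 CPM in lymphoid cells. Those levels rest on 41, 161, 22 and 14 UMIs, so outside the Trp53-deleted library they lay within 3-fold of the lymphoid level. One cell of the Trp53-intact ADT gate gave 16 of its 33 Lpl UMIs (48.5%).

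Pparg, the lipid-sensing receptor, had few UMIs in endothelial cells. Its level was 5.40 [3.96, 7.18] CPM in the Trp53-deleted ADT library, 35.7 [24.9, 49.7] in the Trp53-deleted, 15.1 [9.58, 22.7] in the Trp53-intact ADT and 14.5 [10.4, 19.8] in the Trp53-intact library, from 47, 35, 23 and 40 UMIs. The lymphoid level was 2.35 to 2.63 CPM. In the gate the Trp53-deleted level stood above all 3 others beyond counting error, the Trp53-deleted ADT level stood below them, and the 2 Trp53-intact levels overlapped. Over the endothelial sub-clusters alone the levels were 9.74 [6.75, 13.6], 35.4 [22.7, 52.7], 18.8 [11.1, 29.7] and 18.9 [12.8, 27.0] CPM in the same order. There the Trp53-deleted ADT and Trp53-deleted intervals were apart, but each overlapped those of both Trp53-intact libraries.

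**Figure D1:**
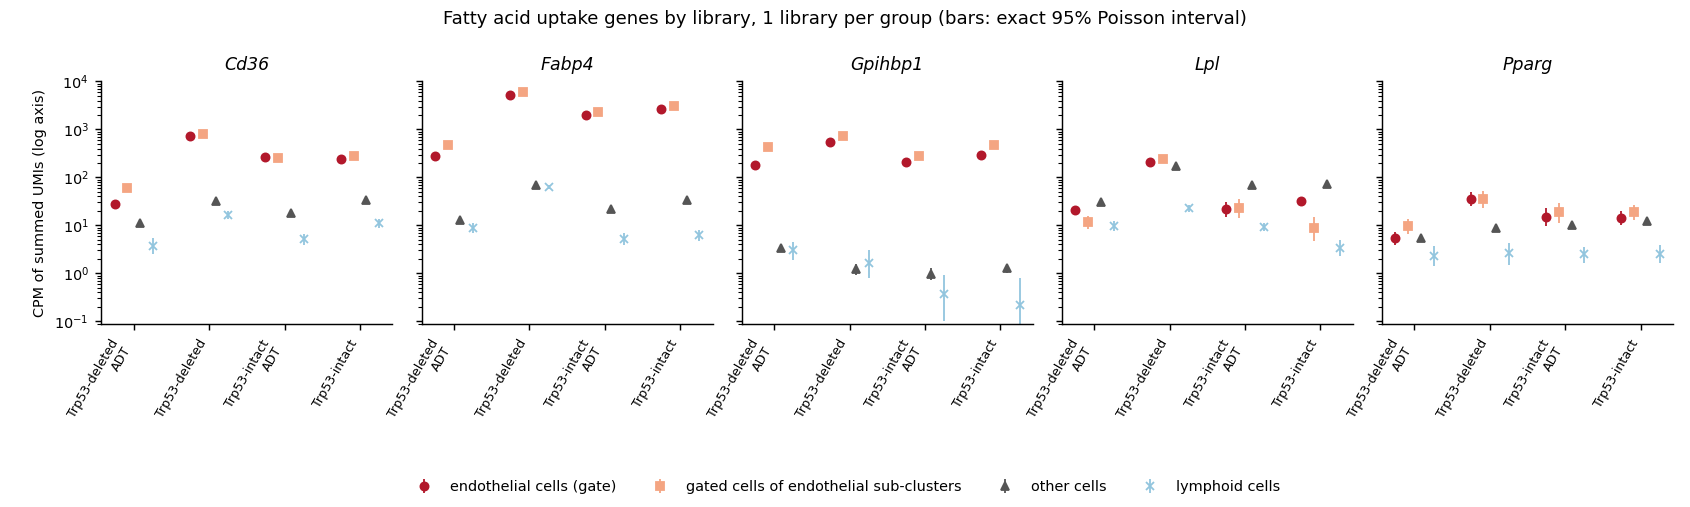
Level of each of the 5 genes (CPM, log axis) per library, in endothelial cells, in endothelial cells of the endothelial sub-clusters, in other cells and in lymphoid cells; bars are exact 95% Poisson intervals and each point is 1 library. Cd36 and Fabp4 of endothelial cells are lowest in the Trp53-deleted ADT library (28.0 and 278 CPM) and highest in the Trp53-deleted library (713 and 5247 CPM), and Lpl of endothelial cells lies above that of other cells only in the Trp53-deleted library (208 against 174 CPM).

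Trp53-deleted ADT against Trp53-deleted compares prostates with and without ADT where Trp53 was deleted. All 5 genes were lower in endothelial cells of the Trp53-deleted ADT library, by at least 1.5-fold. Of the 12225 genes with at least 20 UMIs over both libraries 30.4% were lower and 20.9% higher. Cd36 was 25.4-fold lower [22.0, 29.6] and Fabp4 18.9-fold lower [18.0, 19.8]. Lpl was 10.0-fold lower [8.16, 12.3], Pparg 6.62-fold lower [4.15, 10.5] and Gpihbp1 2.93-fold lower [2.65, 3.23]. On the log2 scale, with 5 CPM added to each level, the differences were -4.44 for Cd36, -4.21 for Fabp4, -3.05 for Lpl, -1.97 for Pparg and -1.52 for Gpihbp1, where the median of all genes was -0.16. General endothelial genes were lower in the gate too, with Pecam1 at 405 against 1014 CPM, Flt1 at 388 against 1700, Kdr at 258 against 679 and Emcn at 335 against 751 CPM. The 12 endothelial markers summed to 3441 against 8498 CPM in the gate and 7585 against 11027 CPM over the endothelial sub-clusters. Only 10 genes were lower than Cd36 and 11 lower than Fabp4. Scaling by the median of ratios moved the median of all genes by 0.26 and left the 5 differences between -4.12 and -1.18.

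Genes of other cells moved with this comparison. Over the endothelial sub-clusters alone the fold was smaller for Cd36, at 13.4-fold lower [11.4, 15.8], and for Fabp4, at 12.9-fold lower [12.2, 13.7]. It was 20.2-fold lower [14.3, 29.2] for Lpl, 3.64-fold lower [2.06, 6.32] for Pparg and 1.71-fold lower [1.54, 1.90] for Gpihbp1, where 23.5% of 10239 genes were lower and 15.9% higher. One Trp53-deleted cell gave 112 of the 486 Gpihbp1 UMIs there. Without the highest cell of each library Gpihbp1 was 410 against 587 CPM, 1.43-fold lower [1.28, 1.61]. Cd36, Fabp4, Lpl and Pparg were then 24.7-, 15.8-, 25.9- and 3.14-fold lower. Cells outside the gate differed in the same direction for Lpl, 5.66-fold lower [5.44, 5.88], Fabp4, 5.32-fold lower [5.01, 5.66], and Cd36, 2.81-fold lower [2.61, 3.03], where 17.0% of genes were lower. One Trp53-deleted cell gave 925 of the 3308 Fabp4 UMIs outside the gate. Pparg of cells outside the gate was lower too, at 5.50 against 8.86 CPM, but by less than 1.5-fold with 5 CPM added. Gpihbp1 of those cells was higher in the Trp53-deleted ADT library, at 3.33 against 1.23 CPM. Lymphoid cells carried 8.89 against 64.2 CPM of Fabp4, where 1 Trp53-deleted cell gave 308 of 390 UMIs. Without the highest cell of each library the lymphoid levels were 7.21 against 13.6 CPM. Cd36 of lymphoid cells was 3.79 against 16.8 CPM. The summed adipocyte markers of the gate were 2.41 CPM in the Trp53-deleted ADT and 84.7 CPM in the Trp53-deleted library, with 5 and 4 of 9 detected. Most of the Trp53-deleted sum was Aqp7, which is also in the list of capillary genes, so this sum does not measure adipocytes alone. The fibroblast collagen Col1a1 was 2284 against 596 CPM in the gate. Adipoq, which defines adipocytes, had 3 UMIs in the first library and none in the second, and Plin1 had none in either. Erythroid markers summed to 28.9 against 3843 CPM, and the seminal vesicle protein gene Svs5 was at 0 against 312 CPM. Their part in the difference was not tested.

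Trp53-intact ADT against Trp53-intact asks the same where Trp53 was kept. None of the 5 genes was 1.5-fold apart in the gated cells, where 15.4% of 10754 genes were, 7.55% higher and 7.85% lower. Cd36 was 264 against 245 CPM (ratio 1.08 [0.952, 1.22]), and Pparg 15.1 against 14.5 CPM (1.04 [0.595, 1.78]). Fabp4 was 2025 against 2645 CPM (0.766 [0.734, 0.799]), Gpihbp1 208 against 293 CPM (0.711 [0.622, 0.810]) and Lpl 21.7 against 31.9 CPM (0.679 [0.441, 1.02]). In the gate Fabp4 and Gpihbp1 were thus lower with ADT beyond counting error but by less than 1.5-fold. Fabp4 passed that size in 3 of 16 alternative settings, with a log2 difference of -1.10 when cells with lymphatic markers were left out, and Gpihbp1 passed it in 4 of 16. Over the endothelial sub-clusters Gpihbp1 was 1.70-fold lower [1.47, 1.96] and Lpl was 2.60-fold higher [1.27, 5.50] (from 22 against 14 UMIs), where 19.9% of genes were called in either direction. One cell gave 16 of those 22 UMIs, and without the highest cell of each library Lpl stood at 6.27 against 6.31 CPM (ratio 0.995 [0.297, 3.02]). Fabp4 over the endothelial sub-clusters was 1.33-fold lower [1.27, 1.40], and 1 Trp53-intact ADT cell gave 756 of its 2214 UMIs. Without the highest cell of each library it was 1603 against 2920 CPM, 1.82-fold lower [1.72, 1.93]. In the gate it was then 1579 against 2304 CPM, under 1.5-fold. Markers of other cells differed as well. The 9 neutrophil markers summed to 1122 against 71.8 CPM, with S100a8 at 543 against 9.43 CPM, and the 11 luminal markers to 580.2 against 1781 CPM. Lymphatic endothelial markers summed to 1973 against 7155 CPM and fibroblast markers to 3685 against 6705 CPM. Their part in these values was not tested.

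Without ADT, Trp53-deleted against Trp53-intact compares the genotypes. All 5 genes were at least 1.5-fold higher in endothelial cells of the Trp53-deleted library, as were 22.7% of 10537 genes, with 9.71% lower. Fabp4 and Gpihbp1 each passed that size in 14 of 16 alternative settings. Under median-of-ratios scaling the split of all genes turned, with 1138 higher and 1777 lower in place of 2396 and 1023. Lpl was 6.52-fold higher [5.06, 8.47], Cd36 2.91-fold higher [2.62, 3.24], Pparg 2.46-fold higher [1.52, 3.98], Fabp4 1.98-fold higher [1.91, 2.06] and Gpihbp1 1.84-fold higher [1.65, 2.06]. On the log2 scale the differences ran from 0.87 for Gpihbp1 to 2.53 for Lpl, where the median of all genes was 0.19. In other cells Lpl was 2.44-fold higher [2.36, 2.53] and Fabp4 2.08-fold higher [1.97, 2.19], whereas Cd36 (31.5 against 33.0 CPM), Gpihbp1 (1.23 against 1.27 CPM) and Pparg (8.86 against 12.1 CPM) were not higher, and 6.58% of genes were. Of the Fabp4 UMIs of other cells, 1 cell gave 925 of 3308 in the Trp53-deleted and 438 of 2546 in the Trp53-intact library. Over the endothelial sub-clusters the Lpl difference was 26.9-fold [15.6, 50.4], from 161 against 14 UMIs, and 23.3% of genes were called higher. Erythroid markers summed to 3843 against 183.9 CPM and Svs5 was 312 against 6.17 CPM in the gate, and their part in the difference was not tested.

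With ADT, Trp53-deleted ADT against Trp53-intact ADT gave another picture. Cd36 was 9.43-fold lower [8.02, 11.1], Fabp4 7.28-fold lower [6.90, 7.68] and Pparg 2.80-fold lower [1.62, 4.71], while Gpihbp1 (1.13-fold lower [0.997, 1.27]) and Lpl (1.04-fold lower [0.697, 1.52]) were less than 1.5-fold apart. Thus 3 of 5 genes were called lower, as were 19.6% of 12285 genes, with 20.4% higher. The sign depended on the cells for Gpihbp1. For Lpl, whose gate difference was close to none, it depended on the cells and the scaling. Gpihbp1 was 1.53-fold higher [1.34, 1.76] and Lpl 1.95-fold lower [1.11, 3.36] over the endothelial sub-clusters, where 17.5% of genes were higher and 12.8% lower. Under median-of-ratios scaling the log2 difference of Lpl was 0.05 instead of -0.05. Without the highest cell of each library it was 0.45 in the gate and 0.08 over the sub-clusters, where 24 against 6 UMIs were left. Neutrophil markers of the gate summed to 59.9 against 1122 CPM, cycling markers to 928.6 against 23.65 CPM and fibroblast markers to 6267 against 3685 CPM. The endothelial markers summed to 3441 against 5323 CPM in the gate and 7585 against 7394 CPM over the endothelial sub-clusters. The part of these cells was not tested. These 4 comparisons share libraries, so their values are given side by side and not related to each other.

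**Figure D2:**
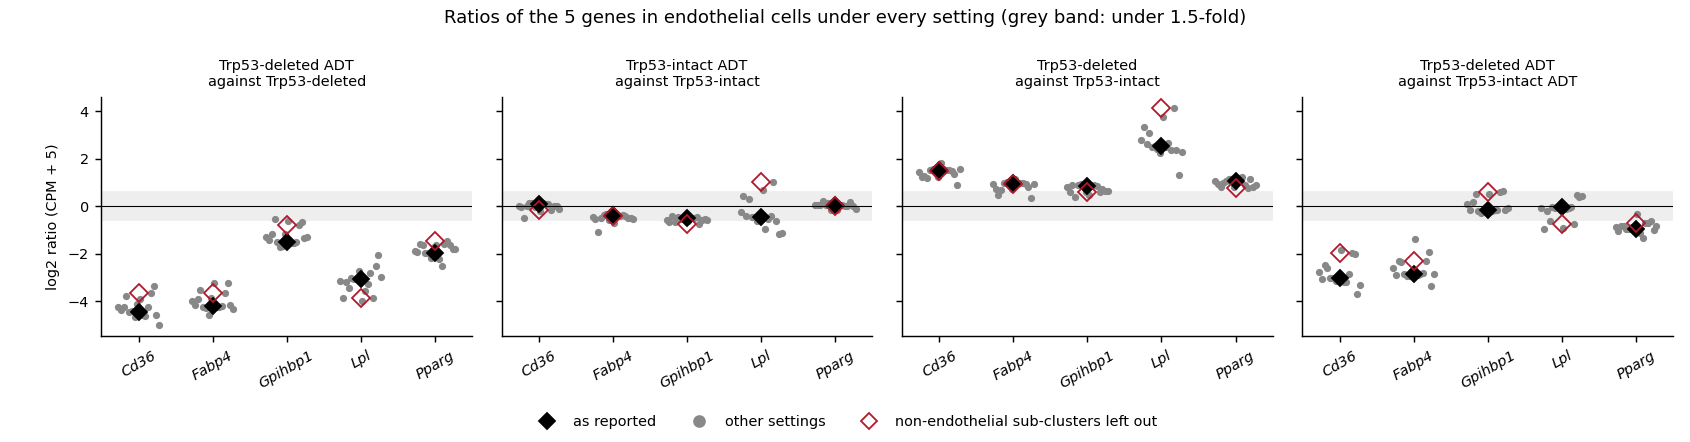
Log2 ratio of each gene in endothelial cells (y axis) in the 4 comparisons under the main setting and each alternative; each point is 1 setting, and the grey band marks ratios under 1.5-fold. In the Trp53-deleted ADT against Trp53-deleted panel Cd36 runs from -5.00 to -3.36 and Fabp4 from -4.56 to -3.22, outside the band in every setting.

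The gated cells of the 4 libraries fell into different sub-clusters. They were clustered again without the 5 genes among the features, which gave 12 sub-clusters. Those whose cells lay mostly in endothelial clusters were a capillary endothelial-like sub-cluster (97 cells, led by Lpl, Timp4 and Aqp7), an arterial endothelial-like (37 cells), a venous endothelial-like (60 cells) and a lymphatic endothelial-like sub-cluster (87 cells). A further 3 stayed unnamed and are called by their leading genes, with Igfbp3 and Hspa1b in 125 cells, Sele and Nfatc2 in 88 cells and Ccl3 and Cxcl2 in 152 cells. The capillary endothelial-like cells had a median of only 3033 UMIs. The Ccl3 and Cxcl2 sub-cluster is led by genes of myeloid cells, and 73.0% of its cells lay in endothelial clusters. Of its 152 cells 132 came from the Trp53-deleted ADT library. Over all endothelial sub-clusters that library held only 17 Ccl3 UMIs in 272 cells, against 532 in 117 Trp53-intact ADT cells. Most of its Trp53-deleted ADT cells thus held no Ccl3 UMI, and the name is only a label for them.

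Each blood endothelial sub-cluster was mostly of 1 or 2 libraries. The capillary endothelial-like sub-cluster held 0.860% of the gated cells of the Trp53-deleted ADT library, 55.1% of the Trp53-deleted, 12.7% of the Trp53-intact ADT and 2.28% of the Trp53-intact library. The Igfbp3 sub-cluster held 0%, 9.45%, 27.3% and 32.9%, where 0 of 349 cells, read at a limit of 3 cells, allows a share of up to 0.860%. The Ccl3 and Cxcl2 sub-cluster held 37.8%, 3.15%, 10.0% and 0.457%, and the Sele and Nfatc2 sub-cluster 20.3%, 3.15%, 8.0% and 0.457%. A sub-cluster that comes mostly from 1 library may reflect that library and not a cell type.

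**Figure D3:**
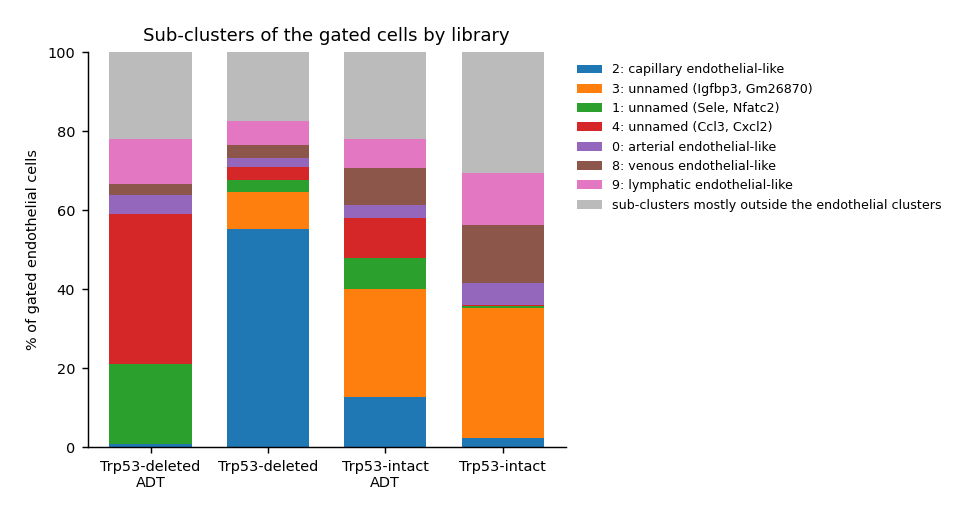
Share of each library's gated cells (percent, y axis) per sub-cluster, as stacked bars, 1 bar per library. Each endothelial sub-cluster has its own segment, and those mostly outside the endothelial clusters are pooled in 1 grey segment. The capillary endothelial-like share is 55.1% in the Trp53-deleted bar and 0.860% in the Trp53-deleted ADT bar, where the Ccl3 and Cxcl2 sub-cluster holds 37.8%.

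Summed over libraries, Cd36, Fabp4, Lpl and Pparg were highest in the capillary endothelial-like sub-cluster, where 70 of 97 cells came from the Trp53-deleted library. Within that library the 4 capillary levels were also above those of the Igfbp3 sub-cluster, the only other one with at least 10 of its cells, though for Pparg the intervals overlapped (47.5 [27.7, 76.1] against 24.4 [6.66, 62.5] CPM). Within the Trp53-intact ADT library Cd36 and Lpl were highest in capillary cells as well. Fabp4 was not, at 4813 [4324, 5342] CPM in capillary against 5942 [5602, 6297] CPM in venous cells, nor was Pparg, at 27.3 [3.30, 98.5] against 30.7 [16.4, 52.5] CPM in Igfbp3 cells. Over all libraries Cd36 was 1244 [1146, 1349] CPM in capillary cells, against 374 in the Igfbp3, 302 in the venous, 272 in the arterial, 30.4 in the Sele, 26.3 in the Ccl3 and 1.77 CPM in the lymphatic sub-cluster. Intervals of the Igfbp3 sub-cluster [342, 408] and the venous sub-cluster [263, 346] just overlapped, and the venous overlapped the arterial [211, 345]. The order of these sums for Fabp4 was another, with 9199 [8928, 9477] CPM in capillary, 6228 [6045, 6416] in venous, 2359 [2171, 2559] in arterial and 2223 [2143, 2304] in Igfbp3 cells, the last pair overlapping, and 41.6 CPM in lymphatic cells. Lpl was 419 [363, 482] CPM in capillary cells and at most 18.6 CPM in the other endothelial sub-clusters, with none of its UMIs in the Sele sub-cluster, which allows up to 2.80 CPM. Pparg was 55.0 [35.9, 80.6] CPM in capillary and 6.57 to 22.6 CPM in the other sub-clusters.

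Gpihbp1 kept a different pattern. It was 750 [704, 798] CPM in the Igfbp3, 643 [573, 720] in the capillary, 585 [547, 624] in the Ccl3 and 403 [370, 439] in the Sele sub-cluster, and the capillary interval overlapped both that of the Igfbp3 and that of the Ccl3 sub-cluster. Lymphatic cells held 189 [164, 216] CPM. Venous and arterial cells held only 18.6 [9.91, 31.8] and 12.2 [2.51, 35.6] CPM of Gpihbp1 although they were rich in Fabp4. The Trp53-deleted ADT library, whose gated cells fell largely in the Ccl3 and Sele sub-clusters, had Gpihbp1 at 602 [563, 643] and 444 [407, 484] CPM in them with Cd36 at 26.1 and 28.0 CPM and Fabp4 at 239 and 100 CPM. The few Trp53-intact ADT cells of these sub-clusters, 15 and 12 cells, had Gpihbp1 at 45.4 [5.49, 164] and 93.9 [40.5, 185] CPM. Over the endothelial sub-clusters the Trp53-intact ADT library held 532 Ccl3 UMIs and the Trp53-deleted ADT library 17. Their cells in the Ccl3 sub-cluster may therefore differ in kind.

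**Figure D4:**
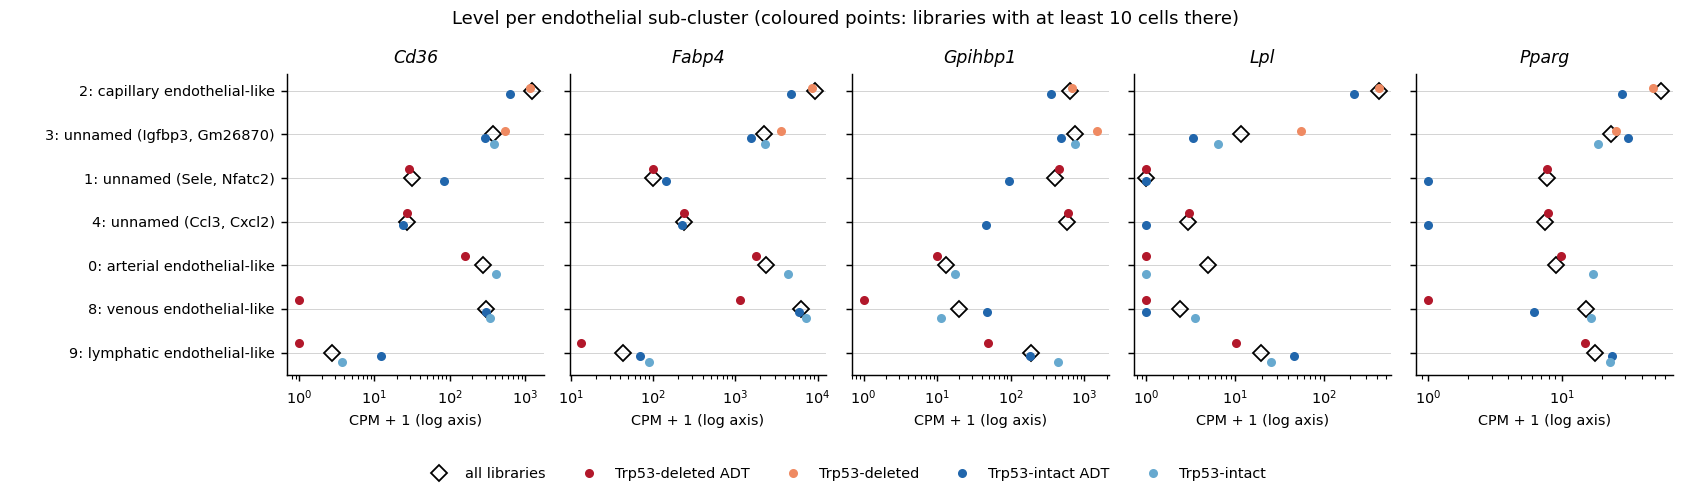
Level of each gene (CPM + 1, log axis) in the endothelial sub-clusters, over all libraries (open diamonds) and in each library with at least 10 cells there (coloured points). Gpihbp1 is low in the venous (18.6 CPM) and arterial (12.2 CPM) sub-clusters, where Fabp4 is 6228 and 2359 CPM.

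Levels also differed between libraries within a sub-cluster. In the capillary endothelial-like sub-cluster, 70 Trp53-deleted cells and 19 Trp53-intact ADT cells could be set side by side. Cd36 was 1152 against 627 CPM, Fabp4 8570 against 4813 CPM, Gpihbp1 668 against 355 CPM and Lpl 419 against 218 CPM, each higher in the Trp53-deleted cells. All 16 Lpl UMIs of the Trp53-intact ADT cells came from 1 cell. The Trp53-deleted ADT library had only 3 cells there, at 5141 CPM of Cd36 and 36498 CPM of Fabp4, too few to compare. In the Igfbp3 sub-cluster Fabp4 was 3603 CPM in Trp53-deleted, 1536 in Trp53-intact ADT and 2310 CPM in Trp53-intact cells, and Gpihbp1 was 1472, 475 and 747 CPM in the same order. In venous cells Fabp4 was 1148 [919, 1416] CPM in the Trp53-deleted ADT, 5942 [5602, 6297] in the Trp53-intact ADT and 7263 [6997, 7538] CPM in the Trp53-intact library, so it was low in the Trp53-deleted ADT library there too. Arterial cells of the Trp53-deleted ADT and Trp53-intact libraries held 1800 against 4404 CPM of Fabp4 and 160 against 406 CPM of Cd36.

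With the capillary endothelial-like cells left out, the other blood endothelial cells that were neither arterial nor venous (203, 20, 68 and 74 cells) had Cd36 at 26.9 CPM in the Trp53-deleted ADT, 407 in the Trp53-deleted, 241 in the Trp53-intact ADT and 373 CPM in the Trp53-intact library. Fabp4 was 177, 2666, 1216 and 2258 CPM, and Gpihbp1 532, 1089, 382 and 744 CPM in that order. The Trp53-deleted ADT library was thus the lowest in Cd36 and Fabp4 also without the capillary cells, but not in Gpihbp1. The cells left were of different sub-clusters by library, with 0, 12, 41 and 72 of them in the Igfbp3 sub-cluster. Library and sub-cluster can therefore not be told apart in these levels. Between the Trp53-deleted and Trp53-intact libraries Cd36 was then 407 against 373 CPM, where it was 867 against 377 CPM with the capillary cells in. The first of these levels rests on 20 cells. Over the whole gate without the capillary sub-cluster, the log2 difference of Cd36 was 0.91, past 1.5-fold, in place of 1.52. For Lpl the levels without capillary cells were 1.14, 40.7, 1.81 and 5.28 CPM.

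Genes were also found together in single cells of the endothelial sub-clusters. Among Fabp4-positive cells, 28.8%, 85.7%, 48.8% and 64.5% held a Cd36 UMI in the Trp53-deleted ADT, Trp53-deleted, Trp53-intact ADT and Trp53-intact libraries, against 3.18%, 10.2%, 6.58% and 15.8% of Fabp4-negative cells. Gpihbp1 went with Fabp4 less evenly, at 53.8% against 49.1%, 57.1% against 32.7%, 41.5% against 43.4% and 34.2% against 73.7%. In the Trp53-intact library, Gpihbp1 was thus rarer among Fabp4-positive cells. No UMI of any of the 5 genes was found in 38.6%, 28.6%, 34.2% and 11.2% of these cells, and all 5 were found together in 2, 5, 0 and 0 cells. Detection in a cell also depends on its depth.

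Outside endothelium each gene had its own cells, in classes named from marker genes after clustering all kept cells. Cd36 came next in macrophage-like cells, at 34.2, 170, 107 and 115 CPM in the Trp53-deleted ADT, Trp53-deleted, Trp53-intact ADT and Trp53-intact libraries, and in dendritic-like cells at 51.4, 142, 117 and 76.7 CPM. Because they are many, macrophage-like cells held 53.8%, 29.6%, 35.0% and 55.9% of all Cd36 UMIs. Within them a cluster led by Ccl8, Cd209f and Folr2, genes of resident macrophages, had 211, 233, 193 and 264 CPM, so its low and high libraries were within 1.5-fold of each other. The cluster led by Ms4a6c, Ms4a4c and Lyz2 had 30.1, 62.0, 95.7 and 56.3 CPM. The Trp53-deleted ADT library had 56 of its 2184 macrophage-like cells in the Folr2 cluster and 2128 in the Ms4a6c cluster, against 316 and 97 of 425 in the Trp53-deleted library.

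Fabp4 was also a gene of mural cells here. Smooth muscle and pericyte-like cells outside the endothelial gate, led by Rgs5, held 806 [693, 931] CPM in 47 Trp53-deleted ADT cells, 2245 [1972, 2545] in 29 Trp53-deleted cells, 525 [445, 615] in 56 Trp53-intact ADT cells and 1682 [1590, 1778] CPM in 109 Trp53-intact cells. These cells had at most 4 UMIs of Cdh5 or Pecam1 and at most 1 of Gpihbp1 in any library, and their Rgs5 was 2178 to 6896 CPM. Both ADT libraries were lower than their library of the same genotype. Macrophage-like cells held 8.76, 75.0, 74.3 and 42.6 CPM and fibroblast-like cells 7.46, 135, 7.46 and 16.5 CPM of Fabp4, where lymphoid cells held 8.89, 64.2, 5.23 and 6.30 CPM, or 7.21, 13.6, 4.87 and 5.53 CPM without the highest cell of each library.

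Lpl was above all a gene of fibroblasts and myeloid cells. Fibroblast-like cells held 162, 411, 211 and 267 CPM in the Trp53-deleted ADT, Trp53-deleted, Trp53-intact ADT and Trp53-intact libraries, and 29.3%, 59.8%, 67.8% and 43.2% of the Lpl UMIs. Among fibroblasts a cluster led by Sult1e1 and Col6a5 had 492 CPM in the Trp53-deleted and 326 CPM in the Trp53-intact library. A cluster led by Apod and Mmp3 had 227, 251 and 81.4 CPM in the Trp53-deleted ADT, Trp53-intact ADT and Trp53-intact libraries, and a cluster led by Wif1 and Lgr5 had 6.72 to 12.7 CPM. Dendritic-like cells differed most between libraries, at 11.3 [8.24, 15] CPM in the Trp53-deleted ADT library against 628 [600, 658] in the Trp53-deleted, and at 201 CPM in the Trp53-intact ADT against 175 in the Trp53-intact library. Macrophage-like cells held 26.9 CPM in the Trp53-deleted ADT library against 176 in the Trp53-deleted, and 114 CPM in the Trp53-intact ADT against 107 in the Trp53-intact library. An unnamed cluster led by Ctsk and Acp5, both known from osteoclasts, held 345 [314, 378] CPM of Lpl in its 50 cells, all from the Trp53-deleted ADT library.

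Pparg was spread over several classes. Luminal progenitor-like cells held 39.7, 15.9, 27.2 and 27.2 CPM in the Trp53-deleted ADT, Trp53-deleted, Trp53-intact ADT and Trp53-intact libraries, and 27.5%, 44.2%, 57.1% and 59.3% of all Pparg UMIs. This was the highest level among classes of at least 50 cells except in the Trp53-deleted library, where endothelial-like cells held 40.8 CPM. In this class Pparg was higher in the Trp53-deleted ADT library than in the Trp53-deleted library, the opposite of the direction in endothelial-like cells, at 8.58 against 40.8 CPM. Median depths in the luminal progenitor-like class were 1998 UMIs in the Trp53-deleted ADT and 31133 UMIs in the Trp53-deleted library. The class lay in different clusters, with 267 of 413 Trp53-deleted ADT cells in one led by Gm26870, Gm10800 and Car2 and 281 of 341 Trp53-deleted cells in one led by Wfdc2, Psca and Cyp2f2. Within the Wfdc2 cluster Pparg was 40.2 [34.3, 46.7] against 15.6 [13.5, 18.0] CPM. A T-like cluster led by Ikzf2, Tnfrsf4 and Ctla4, with Foxp3 among its leading genes, held 39.9, 42.4, 39.1 and 14.9 CPM. The B-like cells had no Pparg UMI in any library.

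**Figure D5:**
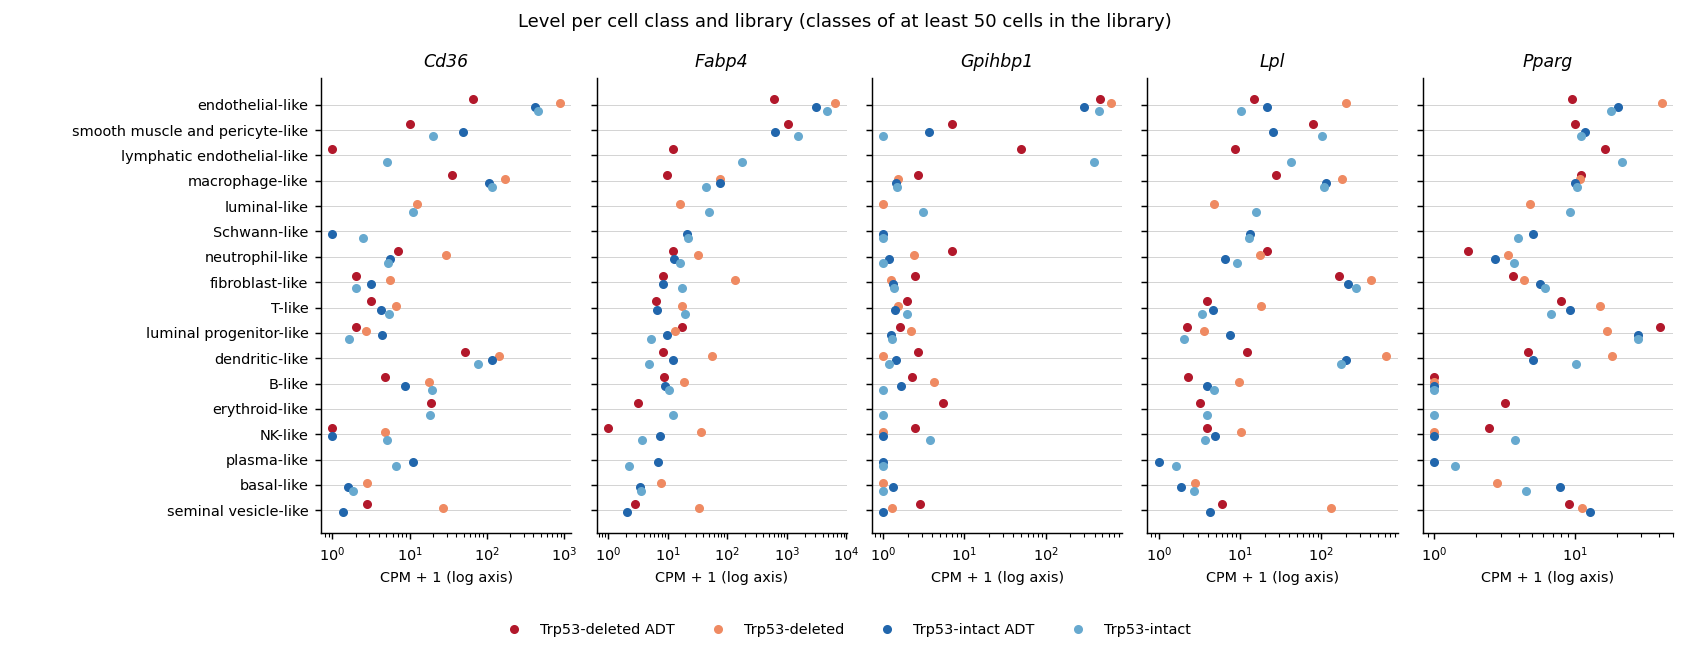
Level of each gene (CPM + 1, log axis) per cell class, 1 point per library with at least 50 cells of the class. Gpihbp1 is highest in endothelial-like points (295 to 635 CPM), whereas Lpl is high in fibroblast-like cells (162 to 411 CPM), with its highest point in Trp53-deleted dendritic-like cells (628 CPM), and Pparg in luminal progenitor-like cells (15.9 to 39.7 CPM), with its highest point in Trp53-deleted endothelial-like cells (40.8 CPM).

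Genes with the most similar pattern were sought over 55 sums of UMIs, each over 1 of 17 classes in 1 library, by Pearson's r of log2(CPM + 5). These sums share libraries and depth, so r is a description. Gpihbp1 was most like Robo4 (0.983), Pkn3 (0.979), Grrp1 (0.972) and Nova2 (0.970). Fabp4 was most like Flt1 (0.893), which helped to define the gate, Pcp4l1 (0.860), Fam13c (0.856) and Tcf15 (0.855). Cd36 came closest to BC028528 (0.784), Pik3r6 (0.78), Cd93 (0.777) and Parvb (0.775). The genes closest to Lpl included Cd302 (0.796), Mmp19 (0.793) and Fcgrt (0.784). Pparg had the lowest values, with Scamp1 (0.739), Als2cl (0.733), Phf11d (0.732) and Raph1 (0.727). Between members, r was 0.698 for Fabp4 and Gpihbp1, 0.664 for Cd36 and Fabp4 and 0.095 for Gpihbp1 and Lpl.

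Other genes of the pathway were taken from lists chosen by function. In endothelial cells of the Trp53-deleted ADT against the Trp53-deleted library, 17 of 20 measured capillary genes outside the 5 were lower and 1 higher, with a median log2 difference of -1.98 where all genes had -0.16 and 30.4% of them were lower and 20.9% higher. Timp4 was 2.64 against 97.0 CPM, the glycerol channel Aqp7 0.804 against 67.4 CPM and the transcription factor Tcf15 9.53 against 118 CPM, while Tmem252 was higher at 200 against 67.4 CPM. Fatty acid transport and activation had 9 of 16 lower and 2 higher (median -0.79), with the caveolar coat gene Cavin1 at 178 against 890 CPM and the lysophospholipid transporter Mfsd2a at 6.77 against 48.0 CPM. Partners and targets of PPARs had 14 of 21 lower and 0 higher (median -0.75), and lipoprotein receptors 6 of 9 lower and 1 higher (median -0.98), with the HDL receptor Scarb1 at 120 against 590 CPM. Genes that handle LPL had 3 of 13 lower and 0 higher (median -0.32), no larger a share than among all genes, led by Apoe, the lipoprotein ligand, at 315 against 1393 CPM.

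Lists outside fatty acid uptake moved too, so lower levels were not limited to it. Of the VEGF genes 5 of 9 and of the Notch genes 7 of 9 were lower in the Trp53-deleted ADT than in the Trp53-deleted library, with medians of -0.75 and -0.90 and 0 higher. Within the endothelial sub-clusters the counts were 3 and 4 of 9 with medians of -0.03 and -0.55, and 1 VEGF gene was higher, where 23.5% of all genes were lower and their median was -0.11. The VEGF median was thus no lower there than that of all genes. Fatty acid oxidation genes had 2 of 17 lower and 1 higher (median -0.04). Dissociation stress genes had 10 of 16 lower and 1 higher in the gated cells (median -0.68) but 2 lower and 6 higher over the endothelial sub-clusters (median 0.37). Over those sub-clusters 15 of 20 capillary genes were lower and 1 higher (median -1.82, all genes -0.11), fatty acid transport had 6 of 15 lower and 1 higher, and PPAR partners and targets 9 of 19 lower and 0 higher. Fabp5, another fatty acid carrier, was 309 against 201 CPM in the gate but 47.0 against 257 CPM over the sub-clusters, so its direction depended on the cells.

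In the other comparisons the capillary list followed the members in part. Between the Trp53-deleted and Trp53-intact libraries, 15 of 20 capillary genes were higher and 1 lower (median 1.01, all genes 0.19, of which 22.7% were higher and 9.71% lower), with Timp4 at 97.0 against 6.53 CPM and Aqp7 at 67.4 against 4.35 CPM. Fatty acid transport had 7 of 15 higher and 1 lower (median 0.55), with Mfsd2a at 48.0 against 1.81 CPM, PPAR partners and targets 7 of 19 higher and 2 lower (median 0.30), against 4 of 13 and 4 of 18 over the endothelial sub-clusters, where 23.3% of all genes were higher, and lipoprotein receptors 5 of 8 higher and 0 lower (median 0.76). Dissociation stress genes went the other way, with 10 of 16 lower and 1 higher (median -0.68) and Hspa1a at 285 against 1413 CPM. Between the Trp53-intact ADT and Trp53-intact libraries, 2 of 20 capillary genes were higher and 2 lower (median 0.15, all genes 0.03, of which 7.55% were higher and 7.85% lower), with Car4 at 22.3 against 4.72 CPM and Btnl9 at 14.5 against 34.5 CPM, and none of 14 fatty acid transport genes was called. Between the Trp53-deleted ADT and Trp53-intact ADT libraries, 11 of 19 capillary genes were lower and 0 higher (median -0.63, all genes -0.02, of which 19.6% were lower and 20.4% higher), with Cyp4b1 at 9.41 against 62.4 CPM and Cd300lg at 47.3 against 170 CPM. Within the endothelial sub-clusters 5 of 19 were lower and 1 higher (median -0.28), where 12.8% of all genes were lower. In the gate 9 of 19 PPAR partners and targets were lower and 2 higher (median -0.54). Stress genes were lower in 14 of 16 there (median -1.56), and their part in these differences was not tested.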

How the data were processed

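Mouse prostate cells from 4 groups, with 1 library each, were measured with the 10x Chromium 3′ kit, version 3, after dissociation with collagenase and TrypLE, per the labels' protocols. The deposited values are whole UMI counts per gene and cell barcode, not normalised, in 1 matrix of all libraries. The authors used the mm10 build, per the submitters' processing notes, which name Cell Ranger 2.1.1. The header of the matrix names software 3.1.0 instead, a difference not settled here. Per the deposited table of barcode suffixes, each barcode belongs to 1 library. What else the genotype holds, common to all 4 groups, is not reported here.

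A barcode was kept from 500 UMIs and 200 genes upwards if mitochondrial UMIs made up no more than 20%. The libraries held 148030357 UMIs (Trp53-deleted ADT), 58088678 (Trp53-deleted), 63803901 (Trp53-intact ADT) and 90659173 (Trp53-intact). Between 8.39% and 25.7% of a library's barcodes were over the mitochondrial limit. Doublet scores came from Scrublet in scanpy 1.11.5. Its automatic threshold marked at most 6 barcodes per library, so barcodes were removed from the top of the score, at a share of 0.008 per 1000 barcodes. Clusters were made with Leiden (igraph 0.11.9) on 2000 variable genes and 40 components, and named from marker lists. Gated endothelial cells were clustered again without the 5 genes, and the limits for naming these sub-clusters were set after they were seen.

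UMIs were summed per library and population with numpy 2.4.6, pandas 2.3.3 and scipy 1.17.1 and divided by the sum to give CPM. Levels have exact Poisson, shares Clopper-Pearson and ratios exact conditional binomial intervals, all at 95%. A gene was called by size alone, at 1.5-fold or more of CPM + 5, among genes with at least 20 UMIs over both libraries. No test was made. The size call and the ratio interval were tested on simulated Poisson counts with known folds. That simulation had no spread between cells and did not cover the gate, doublet removal, clustering, naming, thinning or promoter search. The text names the 5 genes, the 4 genes most like each in pattern, the 3 leading genes of a sub-cluster and up to 3 members each way of a list past 1.5-fold. Pathway lists, including VEGF, Notch and stress genes, were chosen by function. The 5 genes and all lists were chosen with earlier results of these data known. Positions came from GENCODE M21 and promoters from RefSeq.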

Additional observations from a re-analysis of the deposited data

Results flagged for a closer look

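The ratio of Trp53-deleted to Trp53-intact libraries lay in opposite directions with and without ADT for several of the 5 genes. Each group is 1 library, so these differences were not tested. In gated endothelial cells the log2 ratio was -3.03 with ADT and 1.52 without it for Cd36. For Fabp4 it was -2.84 with ADT and 0.99 without it, and for Pparg -0.95 and 1.06. Over the endothelial sub-clusters alone the log2 ratio of Cd36 was -1.98 with ADT and 1.48 without it, and that of Fabp4 -2.31 and 0.95. For Lpl it was -0.74 with ADT and 4.13 without it, and for Pparg -0.69 and 0.76. Without the highest cell of each library the Pparg values over the sub-clusters were -0.54 and 0.48. They rested on 30 against 14 and 18 against 27 UMIs, were under 1.5-fold, and both counting intervals included no difference. In the gate the Pparg values without that cell were -0.82 and 0.89, and neither interval included no difference.

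Lpl over the endothelial sub-clusters also went opposite ways with ADT in each genotype, at -3.86 in the Trp53-deleted and 1.02 in the Trp53-intact pair. The second ratio rests on 22 UMIs with ADT and 14 UMIs without it, 1 cell gave 16 of the 22, and it was -0.47 in the gated cells. Without the highest cell of each library the levels of this pair were 6.27 CPM with ADT and 6.31 CPM without it, so the opposite direction was not seen without these cells. The genotype ratio of Lpl with ADT, -0.74 over the sub-clusters, was then 0.08, against 4.03 without ADT.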

How the results depend on the processing

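No paired analysis was possible because each group has 1 library, and for the same reason no library could be left out. Leaving out non-endothelial sub-clusters, cells over 50000 UMIs, the capillary sub-cluster or the highest cell was chosen after seeing the data. Over 16 alternatives no call of the 5 genes changed direction between the Trp53-deleted ADT and Trp53-deleted libraries or between the Trp53-deleted and Trp53-intact libraries. Gpihbp1 in the first pair ran from -1.70 to -0.54 and fell short of 1.5-fold with endothelial-like clusters in place of the gate. Fabp4 in the second pair ran from 0.34 to 1.14, the lowest without the capillary endothelial-like sub-cluster. Gpihbp1 in the second pair ran from 0.39 to 0.94, the lowest with endothelial-like clusters. Each of these 2 genes passed 1.5-fold there in 14 of the 16 alternatives.

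Between the Trp53-intact ADT and Trp53-intact libraries, where 0 of the 5 genes was called, 1 was called when Pecam1 was required, when lymphatic-marker cells, cells over 50000 UMIs, the capillary sub-cluster or the cell with most UMIs of the gene were left out, when lymphoid CPM was taken off or with endothelial-like clusters. It was 2 with doublets kept or non-endothelial sub-clusters left out, and 3 with the mean of per-cell CPM. Between the Trp53-deleted ADT and Trp53-intact ADT libraries 5 in place of 3 were called without non-endothelial sub-clusters.

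Calls over all genes numbered 6268, against 3994 with endothelial-like clusters, 4037 without non-endothelial sub-clusters and 3738 without cells over 50000 UMIs between the Trp53-deleted ADT and Trp53-deleted libraries. Between the Trp53-deleted ADT and Trp53-intact ADT libraries 4917 calls became 2995, 3127 and 2780 in the same settings. Between the Trp53-intact ADT and Trp53-intact libraries 1656 became 2768 with the per-cell mean, 4831 with lymphoid CPM taken off and 1091 with a pseudocount of 10 CPM. Median-of-ratios scaling gave 3570 higher and 2399 lower, in place of 2552 and 3716, in the first pair, and 1138 and 1777, in place of 2396 and 1023, between the Trp53-deleted and Trp53-intact libraries. Taking lymphoid CPM off gave 1734 higher and 3055 lower there, and 635 and 4196, in place of 812 and 844, between the Trp53-intact libraries. The cause was not tested. Depth limits Pparg and Lpl most, with 23 to 47 and 33 to 204 UMIs per gate.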
